A study of Rattus norvegicus with 64 samples.

Results

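The expression of genes that write, erase and read DNA methylation was followed in the rat entorhinal cortex over postnatal development. The 9 genes were chosen by symbol and not by a measured value, though earlier results of these data were known. They were the writers Dnmt1, Dnmt3a and Dnmt3b, the erasers Tet1, Tet2 and Tet3, and the readers Mbd1, Mbd2 and Mbd3. Counts of 6 of the 9, among 17260 genes in all, are described. Tet1, Tet2 and Tet3 were not analysed here.

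The samples were 64 libraries of ribosome-depleted total RNA from Long Evans rats. They came from the medial (MEC) or lateral (LEC) entorhinal cortex, either from layer II (LII) or from layers III–VI together (LDeep), dissected from brain slices at postnatal day 2 (P2), 9 (P9), 23 (P23) or 45 (P45). Each of the 4 tissue pieces had 5 libraries at P2, 3 at P23 and 4 at both other ages. According to the labels no group carried a transgene, deletion or drug, and the groups differed in age, region and layer. Whether they also differed in other ways was not tested. The labels do not say whether the same replicate number in different pieces marks the same animal. For its microRNA samples of MEC the study gives LII and LDeep samples of one animal the same number, and whether this holds for these libraries is not given in the sources used here. The p-values measure the spread between these samples, and fits that pair libraries by number are given beside the layer results.

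DNA methylation in mammals lies mostly on cytosines that precede a guanine (CpG). DNMT1 copies the marks to the new strand after replication, whereas DNMT3A and DNMT3B place them on unmarked DNA. The TET enzymes start their removal by oxidation, and proteins of the MBD family bind methylated CpG or, like MBD3, belong to the NuRD repressor complex without a strong preference for methylated DNA. Neurons are known to gain methylation after birth, and DNMT3A is the writer best known for this step.

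Between 3894334 and 11439143 read pairs were counted per library (median 7569157.5), so that a single count equalled 0.0874 to 0.257 CPM, the unit in which counts are divided by library size. Of the layer markers, 3 of 3 LII markers were higher in LII and 5 of 5 deep-layer markers were higher in LDeep. Of 4 libraries that stood apart, the MEC LDeep library of P2 replicate 4 and the LEC LDeep library of P45 replicate 4 held 0.46% and 0.41% of their counts on ribosomal RNA genes, against at most 0.271% in the other 62. The MEC LII library of P2 replicate 1 held 162 CPM of choroid plexus and ependyma markers, against at most 51.2 CPM in the other 63. The MEC LDeep library of P2 replicate 1 held 1140 CPM of meningeal fibroblast markers, against 27.2 to 91.3 CPM in the 8 other P2 LDeep libraries that did not stand apart. By correlation of all genes it lay nearer the P2 LII libraries (mean r = 0.97) than the P2 LDeep libraries (mean r = 0.955), against its label. The MEC LII library of P2 replicate 1 lay nearer the P2 LDeep (mean r = 0.9205) than the P2 LII libraries (mean r = 0.9095) and held 25.1 CPM of meningeal markers. Layer II markers summed to 702 CPM in this MEC LII library and to 785 CPM in the MEC LDeep library of replicate 1. Deep-layer markers summed to 355 and 435 CPM in the same order. In LEC at P2 the layer II markers summed to 879 to 1170 CPM in LII and 302 to 474 CPM in LDeep. The deep-layer markers there summed to 364 to 528 CPM in LII and 597 to 746 CPM in LDeep. An exchange of the 2 MEC libraries of replicate 1 was not tested, and layer values of MEC at P2 rest on the labels. Of the other libraries, the MEC LII libraries of P2 replicate 3 (mean r = 0.969 and 0.948) and of P45 replicate 4 (0.969 and 0.968) also lay nearer the LDeep than the LII libraries of their age. The former held 43.2 CPM of meningeal markers, against 792 to 1560 CPM in the 8 P2 LII libraries other than MEC replicates 1 and 3, and 1068 CPM of LII markers. The results on age and layers were therefore also computed without the 4 libraries that stood apart and without all 6.

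On the genome build Rn6, Dnmt1 covers 21922515 to 21968495 of chromosome 8 (minus strand, 38 exons) and Dnmt3a covers 28235695 to 28340577 of chromosome 6 (plus strand, 23 exons). Dnmt3b lies on chromosome 3 (149131541 to 149170061, plus strand, 24 exons). Mbd1 and Mbd2 both lie on the plus strand of chromosome 18, at 70248713 to 70263166 and 65814026 to 65885115, and Mbd3 lies on chromosome 7 (12179046 to 12186248, plus strand). Counts were taken over exons, and no exon of these genes overlapped one of another gene on either strand. Dnmt1 and Dnmt3a were the writers with the highest counts and followed different courses over age, so the sequence before their RefSeq start is shown. Each line gives 250 bases of the build GRCr8 on the strand of the gene, with every CpG in capitals. The first is chr8:27762842-27763091 (minus strand) and the second is chr6:32598352-32598601 (plus strand).
Dnmt1: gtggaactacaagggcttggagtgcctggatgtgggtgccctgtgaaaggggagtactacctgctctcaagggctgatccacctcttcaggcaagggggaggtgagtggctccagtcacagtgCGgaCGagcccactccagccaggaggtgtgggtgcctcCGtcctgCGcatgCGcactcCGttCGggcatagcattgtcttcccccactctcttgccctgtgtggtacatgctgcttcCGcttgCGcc
Dnmt3a: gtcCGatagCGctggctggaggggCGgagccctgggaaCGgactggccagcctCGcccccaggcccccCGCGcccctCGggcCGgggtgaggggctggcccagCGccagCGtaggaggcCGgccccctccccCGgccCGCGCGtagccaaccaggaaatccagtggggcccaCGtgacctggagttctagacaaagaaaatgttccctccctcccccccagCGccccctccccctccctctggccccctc

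The Dnmt1 window held 9 CpG and the Dnmt3a window 18, against a median of 5 (quartiles 2 and 15) in 33469 RefSeq promoters of the same length. Promoters were at hand for 5 of the 6 genes, and Mbd1, Mbd2 and Mbd3 held 24, 33 and 17 CpG. The letters CACGTG, the same on both strands, stood in the Dnmt3a window alone of the 5, and in 5.59% of all promoters. On either strand, TTTCCCGC stood in 0.813% and TTTGGCGC in 0.412% of all promoters and in none of the 5. These matches are a description of letters and were not tested as sites.

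The study divided the ages into a younger group, P2 and P9, and an older group, P23 and P45. To keep the 4 pieces of one replicate number from counting as separate animals, their counts were summed, which gave 16 samples. All 3 writers were higher in younger animals, whereas the readers moved little. The test of edgeR called 4 of the 6 genes higher and 1 lower in younger animals, where 77.3% of 13092 genes tested were called in either direction, so a call alone was common. Differences are given as the log2 fold change (LFC) with its standard error (SE), and levels as log2 CPM. In pieces of tissue, fewer cells of a type and less RNA per cell cannot be told apart.

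Dnmt1, the maintenance enzyme, fell in steps until P23. Its levels were 7.65, 7.71, 7.67, 7.70 and 7.74 in the 5 samples at P2 and 6.68, 6.55, 6.54 and 7.05 in the 4 at P9. They were 5.92, 5.99 and 5.80 at P23 and 5.79, 6.06, 5.92 and 6.15 at P45. The P2 samples lay above all others, and the younger and older samples did not overlap. Dnmt1 was 2.4-fold higher in younger animals (LFC 1.26, SE 0.07, BH-adjusted p = 1.4e-10 with edgeR). It fell by 0.97 from P2 to P9 (SE 0.10, adjusted p = 7.8e-07 with edgeR) and fell by 0.81 from P9 to P23 (SE 0.11, adjusted p = 1.1e-05). From P23 to P45 the LFC was 0.08 (SE 0.11, adjusted p = 0.95).

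Dnmt3b, a de novo writer best known from the early embryo, had the lowest counts and the steepest fall. Its summed counts were 239 to 308 at P2, 106 to 190 at P9, 41 to 55 at P23 and 29 to 68 at P45, so the older levels carry a large counting error. The levels were 3.26, 3.28, 3.11, 3.55 and 3.29 at P2 and 1.95, 2.06, 2.13 and 2.75 at P9. They were 0.61, 0.95 and 0.58 at P23 and 0.18, 1.10, 0.42 and 1.06 at P45. As for Dnmt1, younger and older samples did not overlap. Dnmt3b was 4.24-fold higher in younger animals (LFC 2.08, SE 0.16, adjusted p = 5.5e-09 with edgeR). It fell by 1.06 from P2 to P9 (SE 0.20, adjusted p = 0.00031 with edgeR). It fell by 1.57 from P9 to P23 (SE 0.25, adjusted p = 5e-05), with an LFC of 0.03 from P23 to P45 (SE 0.25, adjusted p = 1).

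Dnmt3a, the other de novo writer, followed another course, with its peak at P9 and its fall spread over the later ages. At P2 its levels were 7.27, 6.75, 7.10, 7.24 and 6.96, and at P9 they were 7.52, 7.54, 7.39 and 7.27. They were 6.87, 7.06 and 6.66 at P23 and 5.77, 6.07, 5.81 and 6.22 at P45. The lowest P9 sample equalled the highest P2 sample to 2 decimals, and every P45 sample lay below every sample of the other ages. Dnmt3a was 1.78-fold higher in younger animals (LFC 0.83, SE 0.09, adjusted p = 3.3e-07 with edgeR). It rose by 0.36 from P2 to P9 (SE 0.12, adjusted p = 0.016) and then fell by 0.56 to P23 (SE 0.14, adjusted p = 0.0021) and fell by 0.89 to P45 (SE 0.13, adjusted p = 0.006). The early rise was not called without P9 replicate 2 (LFC 0.32, adjusted p = 0.052) or in MEC libraries alone (LFC 0.25, adjusted p = 0.21), and it was 0.51 (adjusted p = 0.00027) without the 4 libraries that stood apart and 0.54 (adjusted p = 9.5e-05) without all 6.

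**Figure D1:**
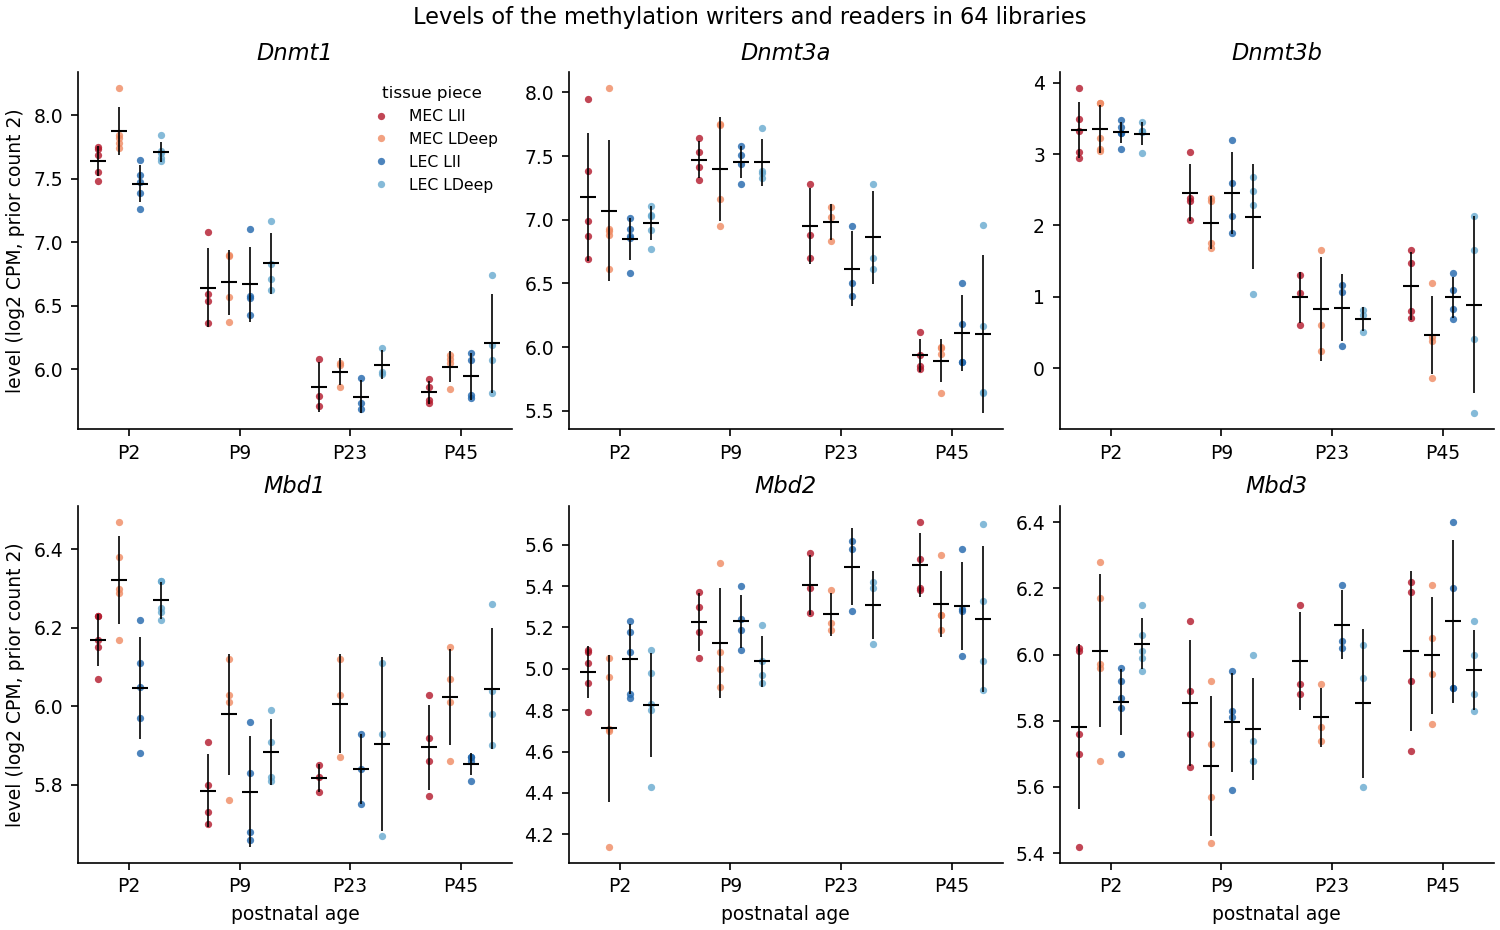
Level of each gene (log2 CPM, vertical axis) at the 4 postnatal ages (horizontal axis), with 1 point for each of 64 libraries, coloured by tissue piece. Black marks give the mean and SD of each group of 3 to 5 libraries. Dnmt1 and Dnmt3b were lowest at P23 and P45, Dnmt3a peaked at P9, and the scales of the Mbd panels span a narrower range.

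The step from P23 to P45 set Dnmt3a apart from the 5 other genes, of which none was called. Of all genes tested, 0.458% were called in this step, 18 higher and 42 lower, and Dnmt3a was among the 42 (0.321%) with a 1.86-fold fall. The call held under every one of the 31 alternatives run, with an LFC between -1.06 and -0.61 and an adjusted p of at most 0.038, although the number of genes called ranged from 11 to 482. Some alternatives left out P2 or P9 libraries alone and kept all P23 and P45 samples, so they hardly bear on this step. When 1 replicate number of P23 or P45 was left out, the LFC ranged from -1.0 to -0.79 (adjusted p = 0.0039 to 0.038 with edgeR). In MEC LII the 3 libraries of P23 lay between 6.70 and 7.28 and the 4 of P45 between 5.83 and 6.12, and in MEC LDeep the ranges were 6.83 to 7.10 and 5.64 to 6.0. In LEC LII the ranges overlapped (6.40 to 6.95 and 5.88 to 6.50). They overlapped in LEC LDeep too (6.61 to 7.28 and 5.64 to 6.96). The P45 value of 6.96 was that of the LEC LDeep library of replicate 4, one of the libraries with a high share of ribosomal RNA counts, and the fall was 0.95 (adjusted p = 0.0013 with edgeR) without it. The part of the ribosomal RNA share in the level of Dnmt3a was not tested.

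The other called genes of the pathway in this step numbered 1 of 43, named here after its values were seen, namely Tdg, the glycosylase that removes oxidised methylcytosine, which fell by 0.50 (SE 0.06, adjusted p = 0.00039 with edgeR). Tdg had an LFC of 0.02 from P2 to P9 (adjusted p = 0.75) and fell by 1.11 from P9 to P23 (adjusted p = 6.1e-10 with edgeR), so that it fell in the same 2 steps as Dnmt3a.

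**Figure D2:**
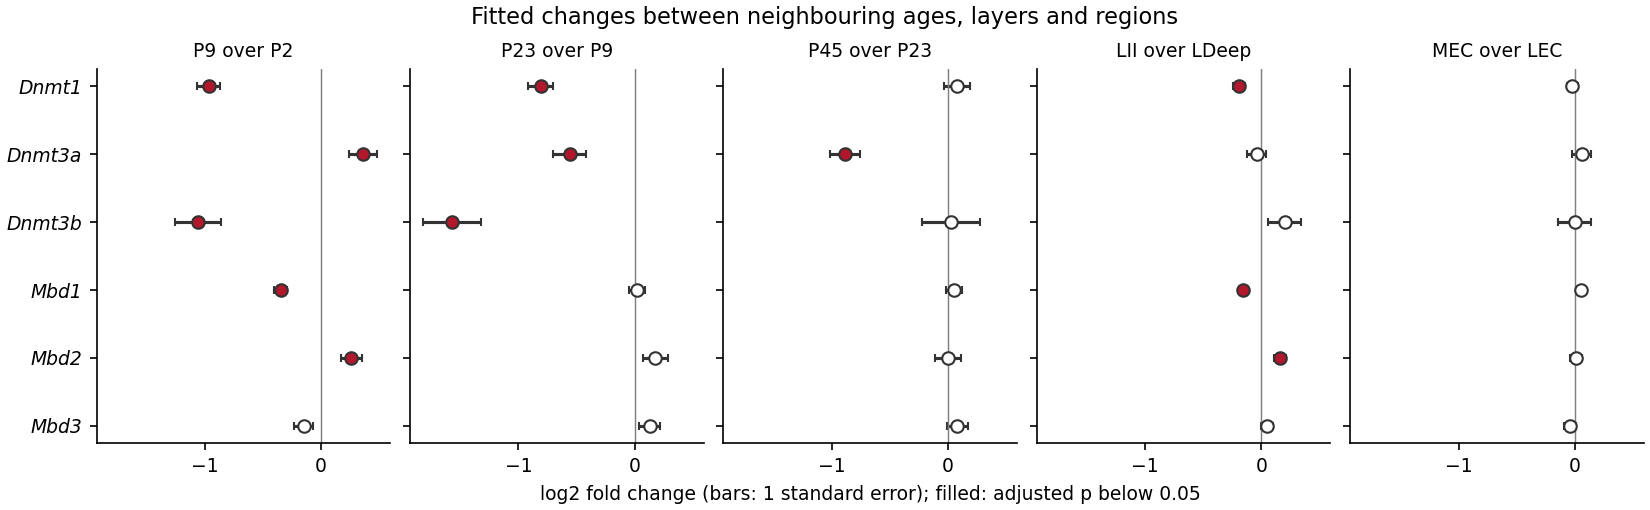
Fitted log2 fold change (horizontal axis, bars of 1 SE) of each gene between neighbouring ages, layers and regions, filled where the BH-adjusted p was below 0.05. From P23 to P45 the filled point is Dnmt3a at -0.89, and between regions no point is filled.

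To compare genes with each other, levels were divided by exon length (log2 of CPM per kilobase of exon, here log2 FPKM). In the 16 summed samples the Dnmt3a level minus the Dnmt1 level was -0.17 ± 0.24 (SD, n = 5) at P2, with Dnmt3a above Dnmt1 in 2 of 5 samples. The difference was 1.19 ± 0.34 (n = 4) at P9 and 1.42 ± 0.11 (n = 3) at P23, and it was 0.45 ± 0.08 (n = 4) at P45. Dnmt3a was thus above Dnmt1 in all 11 samples from P9 on, and the P45 range (0.35 to 0.53) lay below the P23 range (1.32 to 1.53). These values are given as a description, without a test.

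**Figure D3:**
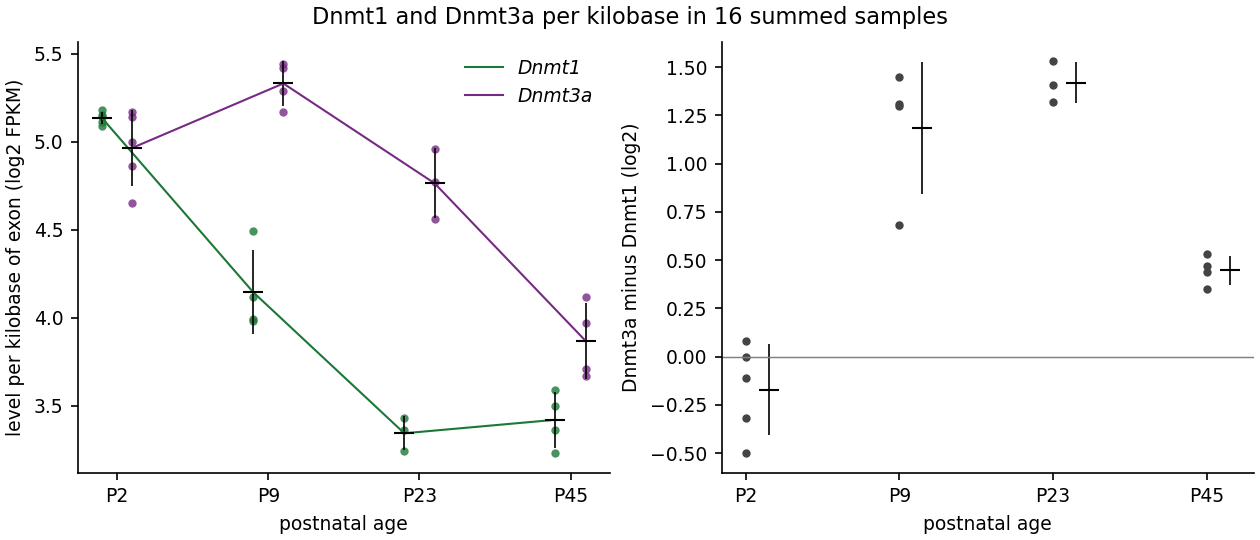
Left, level per kilobase of exon (log2 FPKM) of Dnmt1 and Dnmt3a at each age in 16 samples summed over 4 tissue pieces, with lines through the means and bars of 1 SD. Right, Dnmt3a minus Dnmt1 in each sample, which was near 0 at P2, highest at P23 (1.32 to 1.53) and 0.35 to 0.53 at P45.

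Among single libraries, with the 4 pieces of one replicate number counted separately, the order of the mean levels per kilobase changed with age. At P2, Mbd3 (5.12 log2 FPKM) and Dnmt1 (5.11) led and did not differ beyond their spread (difference 0.01 ± 0.23, SD, 20 libraries). The same held for Dnmt3a (4.92) and Mbd1 (4.90), which followed. Dnmt1 was above Dnmt3a by 0.19 ± 0.32, in 15 of 20 libraries, also within the spread. Mbd2 (4.19) came next and Dnmt3b was last (1.22). At P9 Dnmt3a came first (5.34), above Mbd3 (4.97) in 14 of 16 libraries, and the mean of Dnmt1 (4.14) had dropped to the fifth place. Mbd2, the next above, exceeded Dnmt1 by 0.31 ± 0.38, in 11 of 16 libraries, within the spread. At P23 Mbd3 had the highest mean (5.13), and Dnmt3a (4.75), Mbd2 (4.66) and Mbd1 (4.59) followed. Differences between these neighbours did not exceed their spread, with Mbd3 above Dnmt3a by 0.38 ± 0.38, in 9 of 12 libraries. Mbd1 was above Dnmt1 (3.35) in 12 of 12 libraries. At P45 Mbd3 (5.21) was above Mbd1 (4.65) in 16 of 16 libraries. Mbd1 and Mbd2 (4.63) did not differ beyond their spread, and Dnmt3a (3.91) had dropped below both. Dnmt1 (3.43) and Dnmt3b (-1.22) were lowest.

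The readers changed far less with age. Mbd1, which binds methylated CpG and recruits repressors, lay between 6.12 and 6.29 in the 5 samples at P2 and between 5.77 and 6.03 in the 11 later ones. It fell by 0.35 from P2 to P9 (SE 0.06, adjusted p = 0.00015 with edgeR), where 54% of genes were called and 5 of the 6 genes here. It was not called in the later steps. Its LFC of 0.13 between younger and older animals (adjusted p = 0.019) was no longer called without P9 replicate 4 (adjusted p = 0.058), without P23 replicate 3 (adjusted p = 0.094) or in LEC libraries alone (adjusted p = 0.099).

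Mbd2, the reader that brings NuRD to methylated DNA, was the member called lower in younger animals. Its levels were 5.03, 4.77, 5.10, 4.74 and 4.83 at P2 and 5.14, 5.16, 5.28 and 5.06 at P9. They were 5.42, 5.24 and 5.37 at P23 and 5.61, 5.32, 5.21 and 5.22 at P45. Younger and older samples overlapped between 5.21 and 5.28. The LFC was -0.32 (SE 0.07, adjusted p = 0.00064 with edgeR), or 1.25-fold lower in younger animals. The rise of 0.26 from P2 to P9 (adjusted p = 0.026) was lost when any 1 of P2 replicates 2, 4 and 5 or P9 replicates 2 and 3 was left out (adjusted p = 0.051 to 0.087) and in LEC libraries alone (adjusted p = 0.15).

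Mbd3, the NuRD subunit, lay between 5.65 and 6.10 in all 16 samples and did not pass the test of age (LFC -0.09, SE 0.06, adjusted p = 0.15) or of any step. With an LFC of -0.13 it was called for age by edgeR in some alternatives. These were 64 separate libraries (adjusted p = 0.01), LEC libraries alone (adjusted p = 0.036) and the fit without P9 replicate 4 (adjusted p = 0.04). From P2 to P9 its LFC was -0.15 (adjusted p = 0.095), and it became -0.20 (adjusted p = 0.021 with edgeR) without the 4 libraries that stood apart and -0.20 (adjusted p = 0.019) without all 6. From P9 to P23, where 55.8% of genes were called, the 3 writers fell and the 3 readers were not called, with an LFC of 0.02 for Mbd1, 0.18 for Mbd2 and 0.13 for Mbd3. In some alternatives edgeR called a rise in this step. For Mbd2 these were 64 separate libraries (LFC 0.21, adjusted p = 0.018) and LEC libraries alone (LFC 0.28, adjusted p = 0.033). For Mbd3 they were the same 2 (adjusted p = 0.039 and 0.048) and the fit without P9 replicate 4 (LFC 0.21, adjusted p = 0.043).

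The age difference was also computed within each tissue piece, with all 64 libraries in one fit. In the 4 pieces 66.5% (MEC LII), 66.2% (MEC LDeep), 62.7% (LEC LII) and 64.5% (LEC LDeep) of 12521 genes were called. Dnmt1, Dnmt3a and Dnmt3b were called higher in younger animals and Mbd2 lower in each of the 4. The LFC of Dnmt1 ran from 1.15 to 1.32, that of Dnmt3a from 0.67 to 0.91, that of Dnmt3b from 1.97 to 2.13 and that of Mbd2 from -0.36 to -0.26. The Mbd2 call in LEC LII (adjusted p = 0.029) was lost in 9 of 21 fits that left out 1 library or replicate number (adjusted p of up to 0.17). Mbd1 was called in MEC LDeep alone (adjusted p = 0.049), and that call was lost in 16 of the 21 fits (adjusted p of up to 0.24) and without the 4 libraries that stood apart (adjusted p = 0.097), whereas Mbd1 was then called in MEC LII (LFC 0.17, adjusted p = 0.014). Mbd3 was called lower in younger animals in LEC LII (LFC -0.27, adjusted p = 0.0089). That call was lost without P23 replicate 2 (LFC -0.21, adjusted p = 0.064) and without P45 replicate 1 (LFC -0.18, adjusted p = 0.086). None of the 6 genes had an age difference that was called different between layers, where 8.8% of genes were called, or between regions, where 4.38% were. The nearest was Mbd3 between layers (LFC -0.20, SE 0.09, adjusted p = 0.21).

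Markers of other cell types and states moved with age. All 12 markers of proliferating cells were higher in younger animals (median LFC 2.98), and their summed level was 208 to 523 CPM at P2, 132 to 270 at P9, 32.5 to 49.2 at P23 and 30.4 to 55.6 at P45. From P2 to P9 the test called 11 of the 12 lower, from P9 to P23 all 12, and from P23 to P45 none. Of all genes, 54%, 55.8% and 0.458% were called in these steps in either direction. All 7 markers of oligodendrocytes were lower in younger animals (median LFC -5.47), with sums of 117 to 178 CPM at P2 and 828 to 11900 CPM at P45. Markers of microglia (6 of 6), neurons (6 of 7, with 1 higher) and astrocytes (5 of 6, with 1 higher, median LFC -1.34) were lower in younger animals too. The part of these cells in the levels of the writers was not tested. From P23 to P45, where 0.458% of all genes were called, no gene of the 11 marker lists was called. With so few calls over all genes, this does not tell whether these cells changed in that step.

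The other genes of the methylation pathway were taken from a list of 52, of which 43 were tested for age. Of the 43, 19 were higher and 13 lower in younger animals, against 39% and 38.3% of all genes. Among partners of maintenance, 3 of 4 were higher and none lower: Uhrf1, which leads DNMT1 to half-methylated sites, had an LFC of 1.35 (SE 0.17, adjusted p = 1.3e-06 with edgeR), and Pcna and Uhrf2 followed with 0.58 and 0.30. Uhrf1 fell by 1.13 from P2 to P9 and fell by 1.10 from P9 to P23, the same steps as Dnmt1. Of 9 NuRD genes, 6 were higher and none lower, led by the deacetylase Hdac2 (LFC 0.98, SE 0.06, adjusted p = 1.9e-10), with Mta2 at 0.70 and Rbbp4 at 0.42.

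The genes that act after oxidation were split. In base excision, 6 of 12 were higher in younger animals, led by Tdg (LFC 1.35, SE 0.04, adjusted p = 8.7e-14 with edgeR), and 5 were lower, led by Gadd45b (LFC -1.55, SE 0.12, adjusted p = 5.6e-09), one of the stress-induced Gadd45 genes linked to demethylation. All 3 Gadd45 genes were lower in younger animals (Gadd45a -0.82, Gadd45g -0.83). Among TET partners and cofactor enzymes, 2 of 6 were higher and 2 lower. Idh1, which makes the cofactor 2-oxoglutarate in the cytosol, had an LFC of 1.99 (SE 0.11, adjusted p = 4.3e-11), whereas the mitochondrial Idh2 had -0.52 and the CXXC protein gene Cxxc5 had -1.08.

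Of 5 other readers tested, 1 was higher in younger animals and 2 were lower. Mbd6 was higher (LFC 0.48, SE 0.17, adjusted p = 0.017 with edgeR) and Zbtb4, a zinc finger protein gene, was lower (LFC -1.0, SE 0.07, adjusted p = 1.2e-09). In the methyl donor cycle 1 of 7 was higher and 4 lower. There Mat2a, the catalytic subunit that makes S-adenosylmethionine, had 0.30, and Mat2b, its regulatory subunit, had -1.85 (SE 0.08, adjusted p = 2.5e-12). The median LFC of the 43 genes was 0.10, beside 0.01 over all genes tested.

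**Figure D4:**
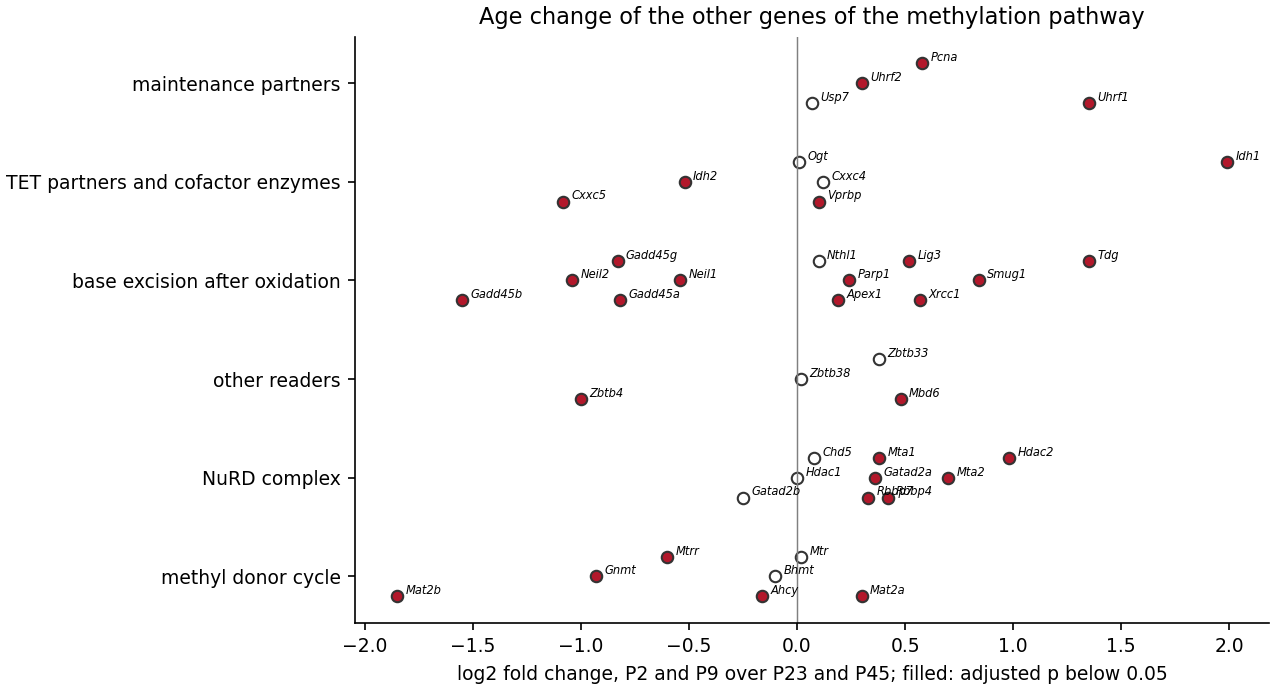
Log2 fold change of P2/P9 over P23/P45 (horizontal axis) for 42 of the 43 other genes of the methylation pathway tested, in 6 role groups (rows; points are offset vertically so that names can be read). Points are filled where the BH-adjusted p was below 0.05. The NuRD and maintenance groups hold called genes on the right side alone, and Mat2b (-1.85) and Idh1 (1.99) lie at the ends.

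The comparison of layers asked which genes differ between LII and LDeep, with ages and regions weighted equally. Dnmt1 and Mbd1 were lower and Mbd2 was higher in LII, each by less than 1.2-fold, while Dnmt3a, Dnmt3b and Mbd3 were not called. The 3 calls of 6 stand beside 54% of 12521 genes (23.5% higher and 30.5% lower in LII). The median LFC of all genes was -0.05, and the median absolute LFC was 0.16, about the size of the LFCs of the 3 genes.

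For Dnmt1, LII libraries ranged from 5.69 to 7.75 (median 6.49, n = 32) and LDeep libraries from 5.81 to 8.21 (median 6.66, n = 32). The ranges overlapped, also within each age, and LII was above LDeep in 3 of 32 pairs of one region, age and replicate number, namely 3 of 16 in MEC and 0 of 16 in LEC. The LFC was -0.19 (SE 0.05, adjusted p = 0.0017 with edgeR) and was -0.17 (adjusted p = 0.0026) without the 4 libraries that stood apart and -0.16 (adjusted p = 0.0051) without all 6. In MEC libraries alone it was -0.15 and not called (adjusted p = 0.089), whereas in the replicate block, which pairs libraries of one age and replicate number, the LFC in MEC was called (-0.15, adjusted p = 0.025). The difference of the layer LFC between MEC and LEC was 0.09 (SE 0.11, adjusted p = 0.78).

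For Mbd1 too, LII was above LDeep in 3 of 32 pairs (LFC -0.16, SE 0.03, adjusted p = 2.1e-05 with edgeR), and its call held under all 32 alternatives (adjusted p of at most 0.03). Mbd2 went the other way, with LII above LDeep in 28 of 32 pairs and an LFC of 0.16 (SE 0.05, adjusted p = 0.01). In MEC and in LEC libraries alone Mbd2 was not called (adjusted p = 0.084 and 0.072). In the replicate block it was called in both (LFC 0.17 in MEC, adjusted p = 0.025, and 0.16 in LEC, adjusted p = 0.031). For Dnmt3a the 32 pairs split evenly (LII higher in 16, mean difference -0.01 ± 0.41, SD), and the LFC was -0.04 (SE 0.08, adjusted p = 0.74). Dnmt3b (LFC 0.20, SE 0.14, adjusted p = 0.23) and Mbd3 (LFC 0.05, SE 0.05, adjusted p = 0.40) were not called either.

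**Figure D5:**
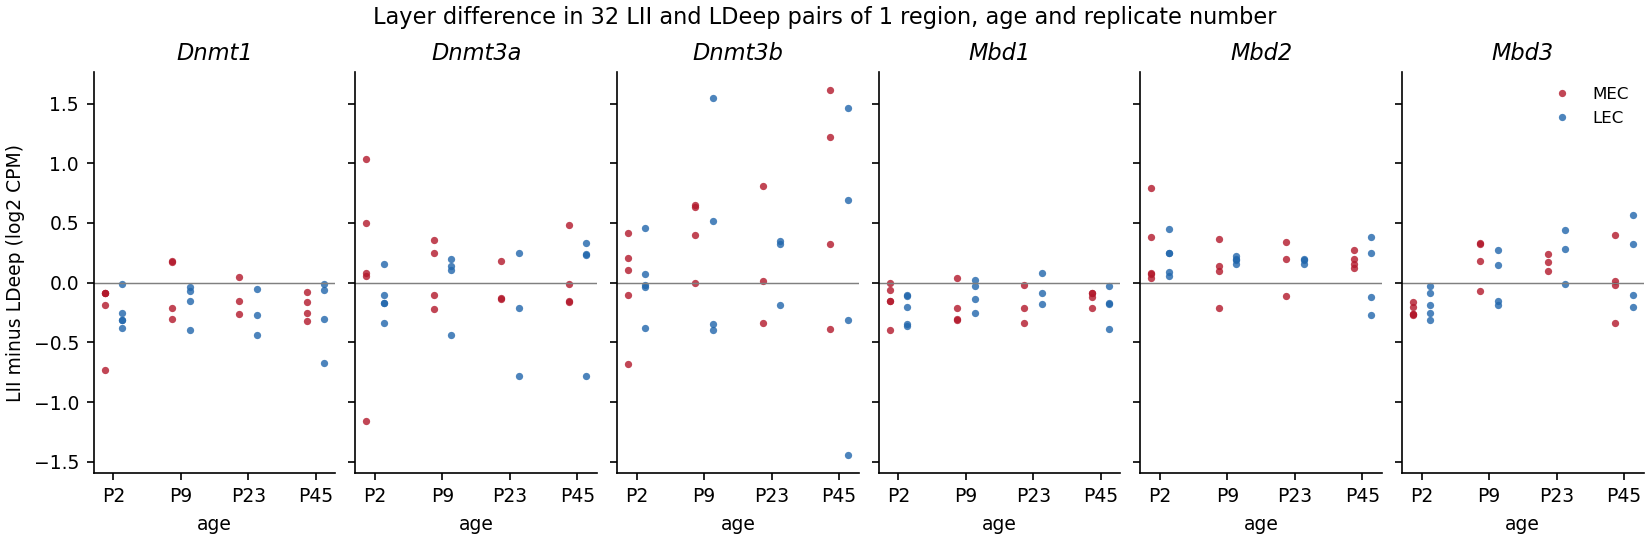
LII minus LDeep (log2 CPM, vertical axis) in 32 pairs of libraries that share region, age and replicate number, by age and coloured by region. For Dnmt1 and Mbd1 29 of the 32 points lie at or below 0, for Mbd2 28 of 32 lie above 0, and Dnmt3a and Dnmt3b scatter widely to both sides.

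Within regions and single ages fewer calls were made. In MEC, where 40.8% of genes were called, Mbd1 was called (LFC -0.17, adjusted p = 0.0013 with edgeR). In LEC, where 38.6% were, Dnmt1 (LFC -0.24, adjusted p = 0.0092) and Mbd1 (LFC -0.15, adjusted p = 0.006) were called, and neither was when P23 replicate 2 was left out. At P2, where 19.2% of genes were called, Dnmt1 (LFC -0.25, adjusted p = 0.049) and Mbd1 (LFC -0.19, adjusted p = 0.011) were called, and neither was without the MEC LDeep library of P2 replicate 4 (adjusted p = 0.2 and 0.069). The Dnmt1 call was lost in 19 of 21 fits that left out 1 library or replicate number, also without the MEC LII library of P2 replicate 3 (adjusted p = 0.086). It was lost too without the 4 libraries that stood apart (LFC -0.17, adjusted p = 0.16) and without all 6 (LFC -0.21, adjusted p = 0.072). Mbd3 became called with edgeR without all 6 (LFC -0.24, adjusted p = 0.026). The same happened without the MEC LDeep library of P2 replicate 1 (LFC -0.24, adjusted p = 0.024). The replicate block called Dnmt1 and Mbd1 at P2 too, and with them Mbd2 (LFC 0.23, adjusted p = 0.027), higher in LII in 10 of 10 pairs, and Mbd3 (LFC -0.20, adjusted p = 0.047), higher in LII in 0 of 10. These pairs include MEC replicates 1, 3 and 4, which hold libraries that stood apart or lay nearer the other layer. The Mbd2 difference was 0.79 in MEC replicate 4, and the block was not run without these libraries. At P9 (33% of genes called) and P23 (25.9%) none of the 6 was called, and in the block Mbd1 was called at P9 (LFC -0.15, adjusted p = 0.019). At P45 (26.4%) the call was Mbd1 (LFC -0.17, adjusted p = 0.038), which was lost in 8 of the 21 fits (adjusted p of up to 0.12), with voom and quantile normalization (0.078), without a filter on low counts (0.059) and with at least 10 counts in every library (0.19). In the block Dnmt1 was called at P45 as well (LFC -0.24, adjusted p = 0.017). No layer difference was called different between regions, where 1.25% of genes were.

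Markers of other cells moved with the layers as well. Of all genes 23.5% were higher and 30.5% lower in LII, and of 12 proliferation markers 9 were higher and none was lower. Of 8 meningeal fibroblast markers 7 were higher in LII and 1 was lower (median LFC 3.84), with a summed level of 25.1 to 1630 CPM in LII and 27.2 to 1140 CPM in LDeep. Of the other lists, 5 of 6 astrocyte, 5 of 5 endothelial and 4 of 6 microglia markers were higher in LII and none of them lower, and 4 of 7 oligodendrocyte markers were lower and 1 was higher. Of 7 neuron markers 3 were lower in LII and 1 was higher (median LFC -0.16). All 4 choroid plexus and ependyma markers tested were higher, and of 3 oligodendrocyte precursor markers 1 was higher and 1 lower. The part of these cells in the layer differences was not tested. Of 40 other pathway genes tested, 7 were higher and 13 lower in LII, beside 23.5% higher and 30.5% lower among all genes. Usp7 and Uhrf2, partners of DNMT1, were lower (-0.18 and -0.23), as was Tdg (-0.17), whereas Idh2 (0.57), Gadd45b (0.56) and Hdac1 (0.28) were higher. The largest difference was that of Bhmt, an enzyme of the methyl donor cycle, with an LFC of -3.79 (SE 0.24, adjusted p = 1.5e-19 with edgeR), and the TET partner gene Cxxc4 (-0.74) followed.

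Between regions none of the 6 genes was called, where 15.4% of 12521 genes were. The LFC of MEC over LEC was -0.02 for Dnmt1, 0.06 for Dnmt3a, 0.00 for Dnmt3b, 0.05 for Mbd1, 0.01 for Mbd2 and -0.04 for Mbd3. The SE was 0.03 to 0.08 except for Dnmt3b (0.14), and the smallest adjusted p was 0.36 with edgeR (unadjusted p = 0.14). None was called at a single age either, where 2.67% (P2), 3.88% (P9), 3.57% (P23) and 9.12% (P45) of genes were called. The largest regional difference of a writer at one age was that of Dnmt3a at P2 (LFC 0.29, SE 0.15, adjusted p = 0.32), which was -0.02 without the 4 libraries that stood apart and -0.08 without all 6. Of 40 other pathway genes 4 were higher and 4 lower in MEC, with Gadd45g (-0.40, SE 0.12, adjusted p = 0.015 with edgeR) and Rbbp7 (-0.20) lower and Gatad2a (0.15), Smug1 (0.15), Mtrr (0.16) and Usp7 (0.10) higher.

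Finally, the genes whose means over the 16 groups were most like each member were found among 11897 genes, by Pearson's r. The groups share ages and libraries, so r mostly reflects the course over age and is given without a test. For Dnmt1 these were the splicing regulator Rbfox2 (r = 0.995) and Zfp354c (r = 0.994), and for Dnmt3b they were St8sia2, a polysialyltransferase of the young brain, and Igsf9 (r = 0.992 for both). For Dnmt3a, whose peak lay at P9, the likeness was lower, with RGD1565166 (r = 0.928) and the kinase gene Zap70 (r = 0.905). Mbd1 was most like Mmaa (r = 0.956) and Zfp653 (r = 0.952), Mbd2 was most like Tnfrsf12a and Slc9a3r2 (r = 0.98 for both), and Mbd3 was most like LOC100910872 (r = 0.891) and RGD1559896 (r = 0.877).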

How the data were processed

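RNA was measured in 64 libraries. According to the study's methods and the submitters' processing notes, the authors ran bcl2fastq 1.8.4, Trimmomatic 0.33, STAR 2.4.0 (Rn6) and featureCounts of Subread 1.4.6-p1 on RefSeq genes. The deposited values are raw counts of read pairs per gene. They were tested with edgeR 4.0.16 in R 4.3.3 (TMM, filterByExpr, quasi-likelihood test, Benjamini-Hochberg adjustment over all genes, threshold 0.05). Age was tested on 16 sums of 4 libraries (13092 genes), and all else on 64 libraries with 16 group means (12521 genes). The SE is the LFC divided by the square root of F. Levels in log2 CPM used a prior count of 2. In 100 replicate pairs the smallest chi-square per degree of freedom was 3.08, so none was counted as a duplicate. Same-numbered libraries deviated together in part (mean r 0.134 over 96 pairs, 55 of them above 0.1). For libraries with different numbers the mean r was -0.043 over 300 pairs, 59 of them above 0.1. The main fit had no block, as in the study's methods, with a replicate block as an alternative. Scripts were tested on simulated counts. Alternatives used DESeq2 1.42.0 and limma 3.58.1, other scalings, filters, blocks and fewer libraries. Named pathway genes were, in each role group, those with the largest called LFC in each direction, together with further examples, and 1 gene of the list is counted but not reported here. The members, lists and rules were chosen with earlier results of these data known. Libraries that stood apart or lay nearer the other layer were identified, and left out in added alternatives, after the data had been seen.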

Additional observations from a re-analysis of the deposited data

Results flagged for a closer look

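Of 72 groups of 4 or 5 libraries (one gene in one tissue piece and age), 4 held a library whose gap to its nearest neighbour was large for the range of its group, where chance gives about 1 in 20. The MEC LDeep library of P2 replicate 4 had a Dnmt1 level of 8.21 log2 CPM (others 7.74 to 7.84) and a Dnmt3a level of 8.03 (others 6.61 to 6.93). It also held 0.46% of its counts on ribosomal RNA genes, the highest share of all libraries, whose part in these levels was not tested. The LEC LDeep library of P9 replicate 3 had a Dnmt3a level of 7.72 (others 7.33 to 7.38). The MEC LDeep library of P45 replicate 1 had a Dnmt3a level of 5.64 (others 5.95 to 6.0).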

How the results depend on the processing

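Under 28 to 32 alternatives no called LFC of the 6 genes changed its direction. Of 4141 LFCs computed in all contrasts, 3954 kept their side of the threshold, 95 were no longer called, 69 became called and 23 uncalled ones moved by more than 1 SE across 0. Of 694 counts of members called, 623 stayed within 1.5 times the reported count. With 64 separate libraries 5 members were called from P9 to P23 and in LEC libraries alone 5, beside 3 as reported. With at least 10 counts in every library, which drops Dnmt3b, 3 instead of 5 were called for age in MEC LDeep, 2 instead of 1 for layer in MEC, 1 instead of 2 in LEC, 0 instead of 2 at P2 and 0 instead of 1 at P45. In MEC libraries alone 1 instead of 3 was called for layer. With voom and quantile normalization the layer counts were 0 in LEC, 0 at P2 and 0 at P45, and at P2 RLE, DESeq2 and no filter each gave 1, with 0 at P45 without a filter. The replicate block gave layer counts of 3 in MEC, 4 at P2, 1 at P9 and 2 at P45, and as a random effect 2 in MEC and 1 at P9. Beside the calls given with the layer results it changed no other call of the 6 genes. Without the 4 libraries that stood apart the layer counts were 1 at P2, 1 at P9 and 1 at P23, and without the 6 libraries no count of members moved by more than 1.5 times. The genes behind a count could still change: without the 6, Dnmt1 was no longer called for layer at P2 and Mbd3 became called. Leaving out 1 replicate number or library gave counts of 3 to 6 from P2 to P9, 3 to 5 for age in LEC LII, and for layer 1 to 2 in MEC, 0 to 2 in LEC, 0 to 3 at P2, 0 to 1 at P9, 0 to 1 at P23 and 0 to 2 at P45. Over all genes, counts moved by more than 1.5 times from P23 to P45 (60 as reported, 11 to 482), for layer (6767, down to 4353 with at least 10 counts in every library), in MEC (5112, 3312) and LEC (4835, 2892), and at P2 (2409, 1232 to 3619), P9 (4128, 2430), P23 (3239, 2065) and P45 (3310, 2046 to 4976). The same held for region at P2 (334, 122 to 512), P9 (486, 263 to 915), P23 (447, 112 to 914) and P45 (1142, 530), and for layer by age (1102, 434 to 1896), layer by region (156, 63 to 307) and region by age (548, 302). The causes were not tested.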
